A study of Mus musculus with 7 samples.

Results

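The Kruppel-like factors (Klf) are zinc-finger transcription factors, and 10 of them, without the erythroid factor Klf1, were examined in LSK cells of Ddx41+/+ and Ddx41+/- mice. They were a list of gene symbols looked up in the deposited counts: Klf2, Klf3, Klf4, Klf6, Klf7, Klf9, Klf10, Klf11, Klf12 and Klf13. All 10 were found among 24421 gene symbols, and all 10 passed the filter on low counts that left 13340 genes to test. The table held 17 Klf symbols in all, and the 7 outside the list are described with the related genes.

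RNA-seq was performed on LSK (Lin-Sca1+Kit+) cells, a marrow fraction enriched for stem and progenitor cells (HSPCs). There were 7 samples, each from a separate recipient mouse: replicates 1 to 4 were Ddx41+/+, and replicates 6 to 8 were Ddx41+/-. BoyJ recipients were lethally irradiated and given 1000000 bone marrow mononuclear cells from Ddx41+/flox or Ddx41+/+ donors, and both kinds of donor carried RosaCreERT2, a ubiquitously expressed Cre recombinase that tamoxifen activates. Every recipient received 1 mg tamoxifen in 50 ul corn oil in 2 rounds of 5 consecutive days, 2 days apart, so the controls also had Cre and tamoxifen. LSK cells were sorted 8 weeks after transplant, about 20000 per mouse. For these samples no donor gate was named, so residual host cells may be present, and neither the age nor the sex of the mice was given. A Ddx41+/- library numbered 5 was removed from the deposited counts and was not analysed here.

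Kruppel-like factors share a C-terminal DNA-binding domain of zinc fingers that reads GC boxes and CACCC elements, and differ in the N-terminal part that recruits partners. By that part they fall into classes: activators such as Klf2, Klf4, Klf6 and Klf7, repressors that bind the corepressor CtBP (Klf3 and Klf12), and factors that bind Sin3A (Klf9, Klf10, Klf11 and Klf13). In blood cells they are known for lymphocyte quiescence and trafficking (Klf2), monocyte differentiation (Klf4) and control of erythroid and B cell maturation (Klf3, Klf13), and several are induced within minutes to hours of a stimulus.

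Klf2, Klf4 and Klf6 each varied across the samples with a list of early response genes, and their promoters are therefore shown. Each line gives the 250 bases before the RefSeq transcription start in GRCm38.p6, written in the direction of transcription, with every GC box (GGGCGG or its complement CCGCCC) in capitals.
Klf2, chr8:72318812-72319061, plus strand: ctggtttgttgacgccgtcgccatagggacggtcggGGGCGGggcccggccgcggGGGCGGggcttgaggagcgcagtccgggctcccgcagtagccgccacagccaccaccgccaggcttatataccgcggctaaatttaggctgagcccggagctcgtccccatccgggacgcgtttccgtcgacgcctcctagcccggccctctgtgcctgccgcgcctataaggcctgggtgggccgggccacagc
Klf4, chr4:55532476-55532725, minus strand: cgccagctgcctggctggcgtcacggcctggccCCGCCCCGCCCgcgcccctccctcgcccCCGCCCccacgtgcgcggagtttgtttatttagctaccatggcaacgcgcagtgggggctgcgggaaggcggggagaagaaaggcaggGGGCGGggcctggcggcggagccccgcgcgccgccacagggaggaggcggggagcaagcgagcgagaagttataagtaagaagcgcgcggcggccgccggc
Klf6, chr13:5861239-5861488, plus strand: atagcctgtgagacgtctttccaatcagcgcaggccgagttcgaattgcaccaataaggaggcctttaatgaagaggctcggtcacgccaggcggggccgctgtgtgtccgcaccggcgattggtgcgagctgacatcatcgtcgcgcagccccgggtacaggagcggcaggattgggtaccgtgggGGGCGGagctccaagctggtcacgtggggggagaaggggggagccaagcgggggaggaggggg
The Klf2 window held 2 GC boxes, the Klf4 window 4 and the Klf6 window 1. Across the 9 members with a RefSeq promoter entry, 7 held a GC box on either strand, as did 32.7% of 32851 promoter windows of the same length. The letters CACCC, the core of a Klf element, occurred on either strand in 6 of the 9, Klf2 among them but neither Klf4 nor Klf6, and in 52.0% of all windows. The cAMP response element TGACGTCA and the CArG box, sites for factors of the early response, occurred in 0 of 9 member windows and in 1.55% and 1.47% of all windows. GC content was 71.2%, 74.0% and 64.8% for Klf2, Klf4 and Klf6, against a median of 52.4% over all windows, which bears on how often GC-rich letters occur. These matches describe the letters only, and the motifs were chosen after the expression values were known.

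Total counts ran from 32234499 to 43751290 per sample, and the biological coefficient of variation was 12.9%. The samples that differed least still differed by a chi-square of 13.7 per gene, so no pair of the 21 agreed within counting noise. Ddx41, the targeted gene, fell from 97.9 to 67.3 CPM (read counts scaled to library size), a log2 fold change of -0.54 (SE 0.071, edgeR adjusted p = 0.0052), with no overlap between genotypes. The LSK markers Kit (427 to 505 CPM), Cd34 (647 to 830 CPM) and Ly6a (13.3 to 30.5 CPM) were detected in every sample. They belong to a list of 12 LSK identity genes, whose summed level was 1926 to 2113 CPM in Ddx41+/+ against 1751 to 1897 CPM in Ddx41+/- samples. At an unadjusted p under 0.05 (edgeR), 8 of the 12 were lower and 0 higher in Ddx41+/-, against 4.93% and 5.7% of all genes. Mpo, a granulocyte-monocyte progenitor marker, was at 12909 to 17267 CPM.

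The question was whether loss of 1 Ddx41 allele went with a different level of any Klf transcript. None of the 10 passed the test across all genes (edgeR quasi-likelihood test, Benjamini-Hochberg adjusted p from 0.295 to 0.948), where 29 of 13340 genes did, 0.217% of those tested. At an unadjusted p under 0.05, 3 members were higher in Ddx41+/- (Klf7, Klf6 and Klf4), against 5.7% of all genes, and 0 were lower, against 4.93% of all genes. Of the 10, 7 had a positive and 3 a negative log2 fold change, with a median of 0.12 against -0.0048 for all genes tested. Groups without overlap were found for 1 member, Klf7, in the higher direction (4.85% of all genes) and for 0 in the lower direction (5.21% of all genes). Values here and below are TMM-scaled CPM, which also adjusts for the composition of each library, and a log2 fold change is Ddx41+/- minus Ddx41+/+.

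**Figure D1:**
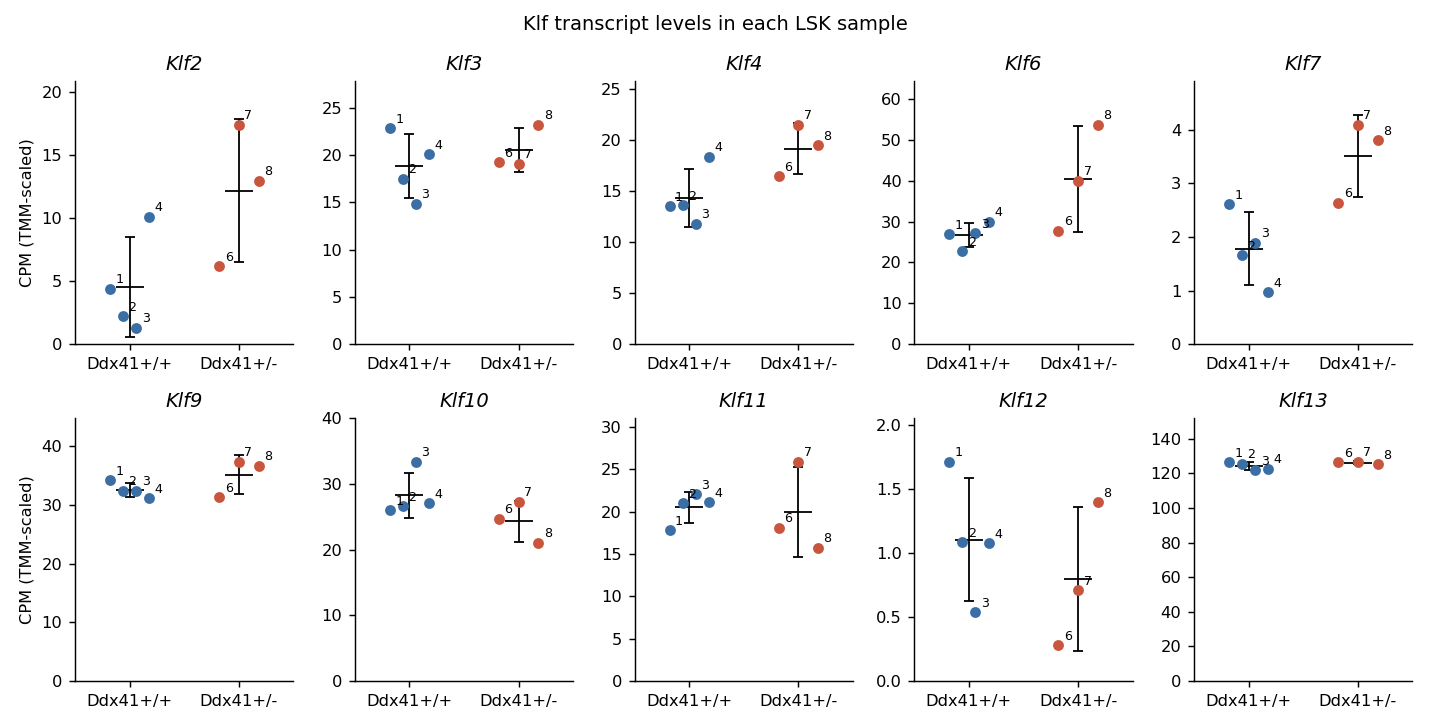
TMM-scaled CPM of each of the 10 Klf genes in every LSK sample (vertical axes from 0, scaled per gene), with replicate numbers beside the points, the mean as a horizontal bar and 1 SD as the error bar, for 4 Ddx41+/+ and 3 Ddx41+/- samples. The genotypes are apart only for Klf7 (0.967 to 2.61 against 2.64 to 4.09 CPM), and Klf13 lies between 122.0 and 126.8 CPM in all samples.

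Among the activators, Klf2 had the widest spread. Klf2 (chromosome 8, 72319033 to 72321656, plus strand, GRCm38) promotes quiescence of lymphocytes and drives S1pr1 expression. It was measured at 4.40, 2.23, 1.30 and 10.1 CPM in the 4 controls (replicates 1 to 4), compared with 6.17, 17.4 and 13.0 CPM in Ddx41+/- replicates 6 to 8, from 41 to 586 reads per sample. Replicates 7 and 8 of Ddx41+/- were above every Ddx41+/+ sample, whereas replicate 6 was below Ddx41+/+ replicate 4, so the groups overlapped. The means were 4.51 ± 3.96 (SD, n = 4) and 12.2 ± 5.65 CPM (SD, n = 3), and the log2 fold change of 1.43 had a 95% interval from -0.48 to 3.33 (SE 0.76, edgeR adjusted p = 0.584). This was the largest fold change of the 10 members and also the one with the widest interval. Without Ddx41+/+ replicate 4 it was 2.18, and without Ddx41+/- replicate 7 it was 1.08, in neither case past the adjusted threshold. The p depended on the fit. The edgeR unadjusted p was 0.114 in the main fit and 0.0124 in the non-robust fit (adjusted p = 0.321). Under limma-voom the unadjusted p was 0.00421 (adjusted p = 0.243).

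Klf4 (chromosome 4, 55527143 to 55532466, minus strand), a factor of monocyte differentiation and cell cycle arrest, had a smaller spread. Its levels were 13.5, 13.6, 11.8 and 18.3 CPM in Ddx41+/+ and 16.5, 21.4 and 19.5 CPM in Ddx41+/- samples. As for Klf2, Ddx41+/+ replicate 4 was the highest control and reached above Ddx41+/- replicate 6. The means of 14.3 ± 2.81 (SD, n = 4) and 19.1 ± 2.52 CPM (SD, n = 3) gave a log2 fold change of 0.42 (SE 0.15, 95% interval 0.10 to 0.73, edgeR unadjusted p = 0.0122, adjusted p = 0.321).

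Klf6 (chromosome 13, 5861482 to 5870394, plus strand), a broadly expressed factor induced by injury and cytokines, was at 26.9, 22.7, 27.2 and 30.0 CPM in Ddx41+/+ and at 27.8, 40.0 and 53.7 CPM in Ddx41+/- samples. The controls lay close together, and the difference came from Ddx41+/- replicates 7 and 8, since replicate 6 lay within the control range. Means were 26.7 ± 2.98 (SD, n = 4) and 40.5 ± 12.9 CPM (SD, n = 3), with a log2 fold change of 0.60 (SE 0.19, 95% interval 0.17 to 1.03, edgeR unadjusted p = 0.0109, adjusted p = 0.314). Single samples decided whether it passed: without Ddx41+/- replicate 6 the log2 fold change was 0.81 (edgeR adjusted p = 0.0324), and without replicate 8 it was 0.35 (edgeR adjusted p = 0.544). DESeq2 on all 7 samples also placed Klf6 past the threshold (adjusted p = 0.0240), where it called 164 genes against 29 by edgeR.

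Klf7 (chromosome 1, 64029447 to 64122282, minus strand), best known for its role in neuronal development, was the one member whose genotypes did not overlap. It was a low transcript, at 2.61, 1.66, 1.90 and 0.967 CPM in Ddx41+/+ and 2.64, 4.09 and 3.81 CPM in Ddx41+/- samples, from 35 to 169 reads. The gap between Ddx41+/+ replicate 1 and Ddx41+/- replicate 6 was narrow, and with library totals alone as the scaling the groups overlapped. The level was 1.97 times higher in the mean of Ddx41+/- (3.51 ± 0.770, n = 3) than of Ddx41+/+ (1.78 ± 0.678, n = 4), with a log2 fold change of 0.97 (SE 0.32, 95% interval 0.29 to 1.66, edgeR unadjusted p = 0.00799, adjusted p = 0.295). In all 15 alternative fits the unadjusted p stayed under 0.05 and the log2 fold change between 0.77 (without Ddx41+/+ replicate 4) and 1.22 (without Ddx41+/+ replicate 1). The spans of Gm26649 and Gm13748, on the opposite strand, touch exons of Klf7, and neither gene has a row in the counts. Exon-to-exon overlap was not examined. If counting ignored strand, reads from any shared exon bases could not be told apart from Klf7.

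**Figure D2:**
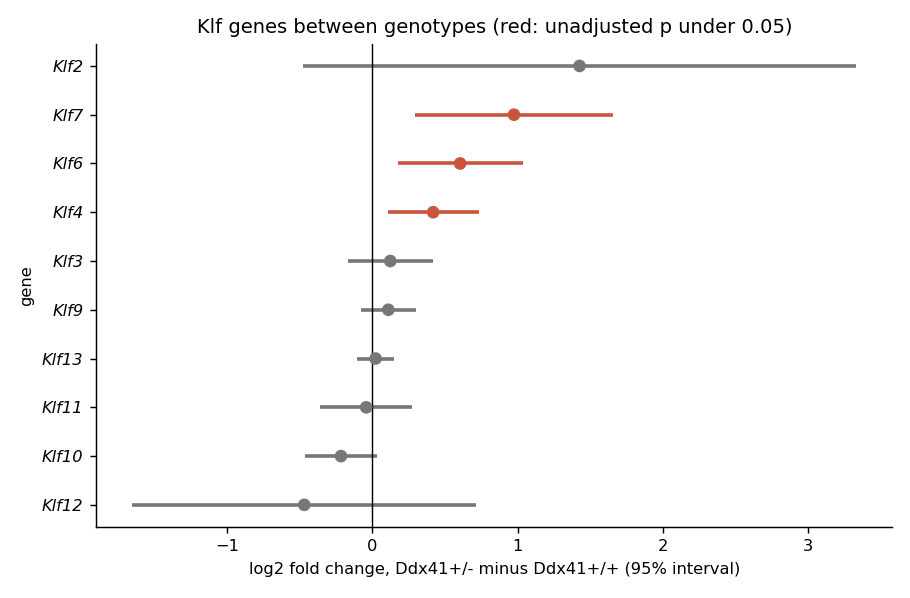
Log2 fold change (Ddx41+/- minus Ddx41+/+) of the 10 Klf genes as points with 95% intervals as lines, from edgeR on 4 against 3 samples, in order of size. The intervals of Klf7, Klf6 and Klf4 lie above 0, that of Klf2 reaches from -0.48 to 3.33, and that of Klf13 from -0.10 to 0.15.

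The CtBP-binding repressors showed no difference past the threshold. Klf3 (chromosome 5, 64803388 to 64832901, plus strand), which opposes Klf1 at erythroid genes and limits B cell maturation, has exon bases touched by the span of the opposite-strand gene Gm20033. Exon-to-exon overlap was not examined. Klf3 was at 14.9 to 22.8 CPM in Ddx41+/+ and 19.1 to 23.2 CPM in Ddx41+/- samples. Its log2 fold change was 0.12 (SE 0.14, 95% interval -0.17 to 0.42, edgeR adjusted p = 0.804). Klf12 (chromosome 14, 99870632 to 100284679, minus strand), a repressor first described at the AP-2 alpha promoter, was the lowest member, with 11 to 71 reads per sample. It lay between 0.537 and 1.72 CPM in Ddx41+/+ and between 0.279 and 1.40 CPM in Ddx41+/-, and its interval of -1.65 to 0.72 around a log2 fold change of -0.47 (SE 0.56, edgeR adjusted p = 0.818) left changes of either sign within reach at this depth. Its log2 fold change was -1.17 without Ddx41+/- replicate 8 and -0.068 without Ddx41+/- replicate 6.

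Of the Sin3A-binding factors, Klf13 was the steadiest transcript and Klf10 had the lowest fold change. Klf13 (chromosome 7, 63886351 to 63938915, minus strand), a regulator of T cell Ccl5 expression and of erythroid maturation, lay at 126.6, 125.6, 122.0 and 122.8 CPM in Ddx41+/+ and 126.5, 126.8 and 125.2 CPM in Ddx41+/- samples. Its highest sample was 1.04 times its lowest, and the 95% interval of its log2 fold change (0.022, SE 0.059, edgeR adjusted p = 0.930) ran from -0.10 to 0.15. Klf9 (chromosome 19, 23141226 to 23168134, plus strand), a target of glucocorticoid and thyroid hormone receptors, was almost as even among the controls (31.2 to 34.2 CPM) and at 31.4, 37.4 and 36.7 CPM in Ddx41+/-, a log2 fold change of 0.11 (SE 0.090, 95% interval -0.081 to 0.30, edgeR adjusted p = 0.714).

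Klf10 (chromosome 15, 38291463 to 38300706, minus strand), induced early by TGF-beta, was at 26.0, 26.6, 33.4 and 27.1 CPM in Ddx41+/+ and 24.7, 27.3 and 21.0 CPM in Ddx41+/- samples. Ddx41+/+ replicate 3 stood above the other controls, and the groups overlapped through Ddx41+/- replicate 7. The mean in Ddx41+/- was 86.1% of that in Ddx41+/+ (24.3 ± 3.14, n = 3, against 28.3 ± 3.45 CPM, n = 4), with a log2 fold change of -0.22 (SE 0.12, 95% interval -0.46 to 0.029, edgeR adjusted p = 0.540). Klf11 (chromosome 12, 24651274 to 24662789, plus strand), its closest relative and also TGF-beta inducible, was at 17.8 to 22.0 CPM in Ddx41+/+ and at 18.1, 25.9 and 15.7 CPM in Ddx41+/-, so that the Ddx41+/- samples lay on both sides of the controls. Its log2 fold change of -0.043 (SE 0.15, 95% interval -0.36 to 0.27, edgeR adjusted p = 0.948) changed sign without Ddx41+/- replicate 6 or 8.

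Single Ddx41+/- samples carried many of the highest values. Ddx41+/- replicate 7 held the highest level of 6 members (Klf2, Klf4, Klf7, Klf9, Klf11 and Klf13) and replicate 8 that of Klf3 and Klf6, and the remaining peaks were in Ddx41+/+ replicate 1 (Klf12) and replicate 3 (Klf10). Replicate 6 of Ddx41+/- held none of them. Groups without overlap were counted for 4 members without Ddx41+/+ replicate 4 (Klf7, Klf6, Klf4 and Klf2, against 7.23% of all genes higher) and for 5 without Ddx41+/- replicate 6 (those and Klf9, against 11.1% of all genes higher). Without Ddx41+/- replicate 7, Klf7 was higher and Klf10 lower without overlap (7.56% and 8.36% of all genes), and without any one of the other samples Klf7 alone was counted, against 6.71% to 8.28% of all genes higher.

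**Figure D3:**
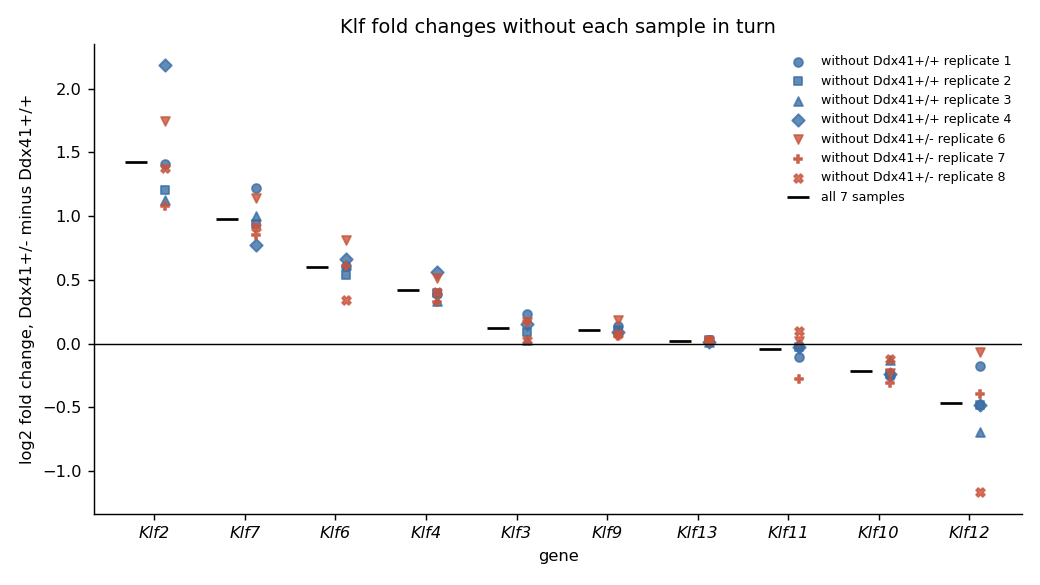
Log2 fold change (Ddx41+/- minus Ddx41+/+) of each Klf gene with all 7 samples (black bar) and after leaving out each sample in turn (symbols: blue for an omitted Ddx41+/+ sample, red for an omitted Ddx41+/- sample), edgeR. Klf2 spans 1.08 to 2.18 and Klf7 0.77 to 1.22, both above 0 throughout, while Klf11 lies on both sides of 0.

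Levels between members were compared per length, as CPM per kilobase of the union of annotated exons (GENCODE M21). In Ddx41+/+ the order of means was Klf13 (16.5), Klf9 (6.76), Klf10 (6.76), Klf6 (6.08), Klf11 (4.72), Klf4 (4.69), Klf2 (2.44), Klf3 (1.67), Klf7 (0.219) and Klf12 (0.158 CPM per kilobase). Neighbours in that order had ranges apart in the 4 control samples at 3 steps: Klf13 above Klf9 (2.44 times in the mean), Klf6 above Klf11 (1.29 times) and Klf3 above Klf7 (7.64 times). At the other steps the ranges overlapped, so Klf9, Klf10 and Klf6 could not be ordered, nor could Klf11, Klf4, Klf2 and Klf3 as neighbours, nor Klf7 and Klf12. With the longest transcript as the length in place of all exons, Klf10 (9.28) stood above Klf9 (7.26) and Klf3 (3.61) above Klf2 (2.44 CPM per kilobase), and the control ranges of Klf6 (5.38 to 7.09) and Klf11 (4.35 to 5.40) overlapped, so that step was lost.

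**Figure D4:**
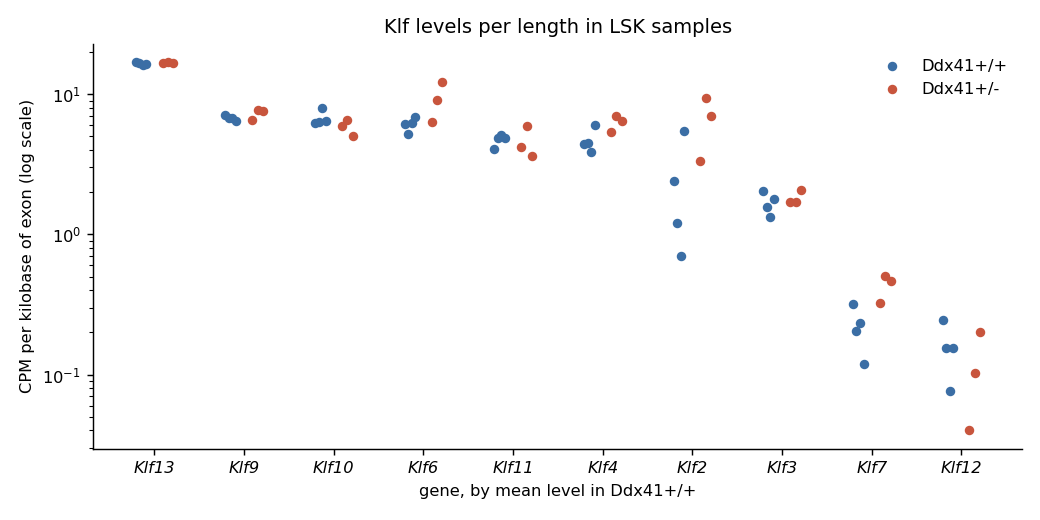
CPM per kilobase of exon (log scale) of the 10 Klf genes in each sample, blue for 4 Ddx41+/+ and red for 3 Ddx41+/- samples, ordered by the Ddx41+/+ mean. Klf13 stands highest (mean 16.5) and Klf7 and Klf12 lowest (0.219 and 0.158), with Klf2 the most spread among the controls.

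Summed over the 10 members, the level was 276.6, 264.4, 267.5 and 282.7 CPM in Ddx41+/+ and 273.3, 320.2 and 313.2 CPM in Ddx41+/- samples. Klf13 made up 43.5% to 47.5% of the sum in Ddx41+/+ and 39.6% to 46.3% in Ddx41+/- samples. Klf2, Klf4 and Klf6 together were at 44.8, 38.5, 40.3 and 58.4 CPM in Ddx41+/+ and 50.4, 78.9 and 86.1 CPM in Ddx41+/-, and Ddx41+/+ replicate 4 and Ddx41+/- replicate 6 again overlapped. These sums are on the CPM scale and weigh long transcripts more than short ones.

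Because Klf2, Klf4, Klf6 and Klf10 belong to the genes that cells induce soon after a stimulus, their levels were set beside a list of 20 other immediate-early genes, among them Fos, Jun and Egr1. Of 18 tested, 1 rose in Ddx41+/- (Rhob, a small GTPase gene, from 91.2 ± 10.4 to 125.4 ± 8.01 CPM, n = 4 and 3, log2 fold change 0.46, edgeR adjusted p = 0.0339). Including Rhob, 5 were higher and 0 lower at an unadjusted p under 0.05, against 5.7% and 4.93% of all genes. The call of Rhob was lost in 7 of 15 alternatives, among them the omission of Ddx41+/+ replicate 2 or 3 or of Ddx41+/- replicate 7 or 8, with edgeR, DESeq2 or limma adjusted p from 0.00025 to 0.138 over all 15. Btg2, an antiproliferative early gene, had the next smallest p (edgeR unadjusted p = 0.0121, adjusted p = 0.320). Log2 fold changes were positive for 15 of the 18, with a median of 0.42 against -0.0048 for all genes. The study named several of the list's genes from these same samples, so the list is not independent evidence of its direction. Its summed level was 578 to 1133 CPM in Ddx41+/+ and 972 to 1524 CPM in Ddx41+/- samples (exact permutation test, two-sided, p = 0.0857, 0.214 after Benjamini-Hochberg adjustment over the lists, where the smallest p 35 splits can give is 0.0286).

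The early response score, the mean of the centred log2 CPM of those 18 genes, was -0.26, -0.61, -0.30 and 0.26 in the controls, in order of replicate, and 0.0053, 0.44 and 0.48 in the Ddx41+/- samples. Klf2, Klf4 and Klf6 followed it across the 7 samples, and the remaining members did not pass the threshold. Pearson's r to the score was 0.905 for Klf2 (exact permutation p = 0.00774), 0.904 for Klf4 (p = 0.00933) and 0.872 for Klf6 (exact p = 0.00317), each 0.0311 after Benjamini-Hochberg adjustment over the 10 members. Spearman's rho was 0.929 for Klf2 (exact permutation p = 0.00675, adjusted 0.0337), 0.857 for Klf4 (p = 0.0238, adjusted 0.0794) and 0.964 for Klf6 (p = 0.00278, adjusted 0.0278), so Klf4 missed the threshold by rank. After subtraction of each genotype's mean r was 0.821, 0.809 and 0.749, and without the 2 samples farthest from the median score (Ddx41+/+ replicate 2 and Ddx41+/- replicate 8) it was 0.914, 0.980 and 0.859. The permutations moved samples freely between genotypes, so their p does not separate covariation from a genotype difference that gene and score share. No p was computed for r within genotypes. The relation was examined after the values were seen, and the points share their libraries.

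The other 7 members had Pearson's r between -0.466 (Klf10, exact permutation p = 0.300) and 0.530 (Klf9, exact permutation p = 0.224), with adjusted p of 0.50 or more. Klf10, though inducible, therefore had the most negative r of the 10 over all samples. Within genotypes its r was -0.10, and Klf13 had the most negative value (-0.44). Klf7 had r of 0.404 (exact permutation p = 0.365, adjusted 0.522) over all samples and -0.28 within genotypes. The part of the early response list in the genotype differences of Klf2, Klf4 and Klf6 was not tested.

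**Figure D5:**
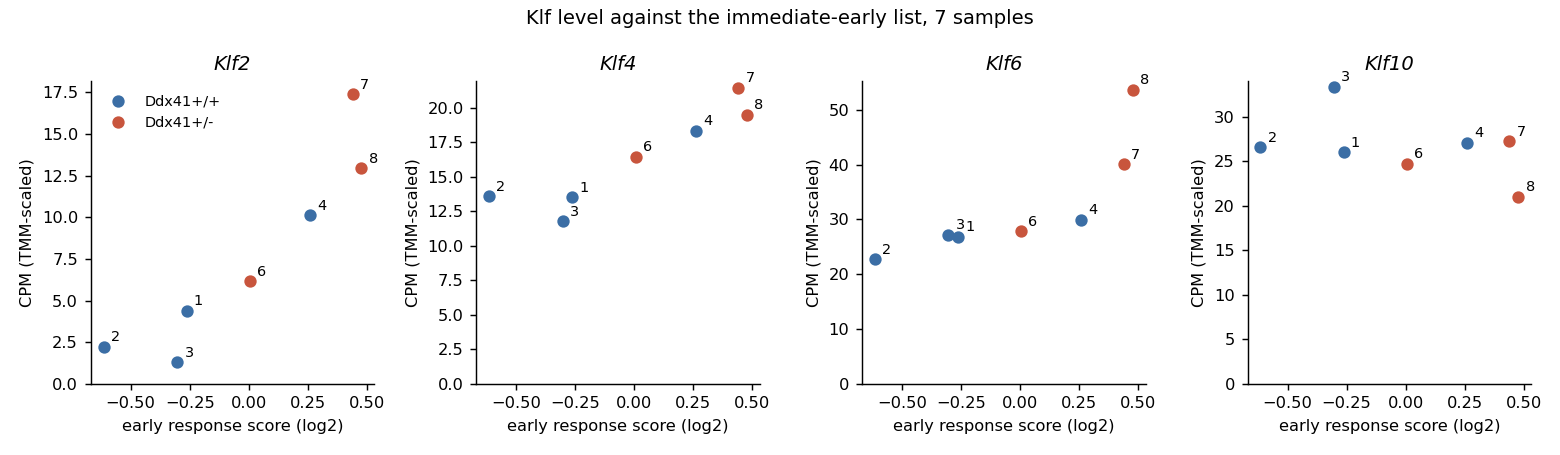
TMM-scaled CPM of Klf2, Klf4, Klf6 and Klf10 (vertical axes from 0) against the early response score (mean centred log2 CPM of 18 immediate-early genes), 1 point per sample with its replicate number, blue for Ddx41+/+ and red for Ddx41+/-. Klf2, Klf4 and Klf6 are higher where the score is higher (r from 0.872 to 0.905), and Klf10 has r of -0.466.

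Between members, deviations from the genotype means were most alike for Klf2 and Klf4 (r = 0.947 over 7 samples, as a description), followed by Klf3 and Klf12 (0.794) and by Klf10 and Klf11 (0.768), and least alike for Klf3 and Klf10 (-0.84). Klf6 was less like Klf2 (0.507) and Klf4 (0.487) than like Klf12 (0.718) and Klf9 (0.647). Among all tested genes the deviations most like those of Klf2 belonged to Brpf1 (r = 0.994), Spon2 (0.980) and Fastk (0.976), and 98 genes exceeded 0.9. For Klf4 they were Ankrd32 (0.983), Nek3 (0.982) and Sidt2 (0.967), with 71 genes over 0.9. Car15 (0.992), Bvht (0.987) and Fam199x (0.987) were the most alike to Klf6, with 80 genes over 0.9. Some of these were low transcripts in the means of Ddx41+/+ and Ddx41+/-: Bvht (0.238 and 0.258 CPM), Car15 (1.38 and 0.894 CPM) and Spon2 (1.68 and 2.36 CPM). Pibf1 (0.994) and Stau1 (0.994) were among the genes closest to Klf10, with 201 over 0.9. With 7 samples such values are reached by many genes, and they are given as a description.

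The remaining family, partner and target genes gave few differences around the 10 members. Of 7 other Klf genes, 4 were tested and 0 passed the test, with Klf8 (1.15-fold in Ddx41+/-, edgeR unadjusted p = 0.243) and Klf16 (0.94-fold, edgeR unadjusted p = 0.255) the closest. Klf14 had 0 counts in every sample, which allows up to 0.0686 to 0.0931 CPM by counting error alone (3 counts), and Klf17 had 17 counts, all in Ddx41+/- replicate 7. Of the Sp factors, relatives that bind the same GC boxes, 4 of 9 were tested and 0 passed, and all 4 had positive log2 fold changes (median 0.097). Those with the smallest p, Sp2 (0.13, edgeR unadjusted p = 0.0956, adjusted p = 0.565) and Sp3 (0.11, edgeR unadjusted p = 0.0969, adjusted p = 0.566), were higher in Ddx41+/- without overlap, as were 4.85% of all genes.

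Genes that act with or upstream of the Klf proteins gave no call. Of 10 cofactor genes 0 passed the test, with a median log2 fold change of -0.013, and the corepressor Ctbp1 (-0.071, edgeR adjusted p = 0.697) and the deacetylase Hdac1 (-0.069, edgeR adjusted p = 0.785) had the smallest p. Of 16 upstream regulators (the Mapk7 and Mef2 branch that induces Klf2 and Klf4, TGF-beta receptors and Smads, glucocorticoid receptor, Foxo factors and ubiquitin ligases) 0 passed, with a median of 0.010. Wwp1, a ubiquitin ligase that targets Klf2, had a log2 fold change of 0.23 (edgeR unadjusted p = 0.0546, adjusted p = 0.483), and Mef2d 0.17 (edgeR unadjusted p = 0.0933, adjusted p = 0.561).

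Of 14 known Klf targets 12 were tested and 0 passed, with a median log2 fold change of 0.029. The list was not split into genes that Klf proteins activate and genes that they repress, so its median does not measure Klf activity. Klf8 is also counted among the other Klf genes. S1pr1, the sphingosine-1-phosphate receptor that Klf2 activates in lymphocytes, was at 5.49, 4.27, 4.96 and 3.84 CPM in Ddx41+/+ and 2.44, 2.996 and 3.49 CPM in Ddx41+/- samples, lower without overlap, as were 5.21% of all genes. Its log2 fold change was -0.64 (SE 0.23, edgeR unadjusted p = 0.0135, adjusted p = 0.326), opposite in sign to that of Klf2. Plau, a urokinase gene listed as a Klf4 and Klf6 target, was higher without overlap, as were 4.85% of all genes (6.67 ± 0.469 against 8.19 ± 0.624 CPM, n = 4 and 3, log2 fold change 0.29, edgeR adjusted p = 0.544). The cell cycle inhibitor Cdkn1a, chosen after its value was seen, was at 1.01-fold in Ddx41+/-.

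Marker lists were set beside these values. Over all genes tested, 5.7% were higher and 4.93% lower in Ddx41+/- at an unadjusted p under 0.05 (edgeR). Of the 12 LSK identity genes 8 were lower in Ddx41+/- at an unadjusted p under 0.05, and 1 of them, Gata2, passed the adjusted threshold (edgeR), a call lost in 10 of 15 alternatives, including without Ddx41+/+ replicate 3 or 4 or any one Ddx41+/- sample. Mature neutrophil markers summed to 680 to 1170 CPM in Ddx41+/+ and 1245 to 2124 CPM in Ddx41+/- samples (8 of 9 tested higher at an unadjusted p under 0.05, with Mmp9 past the adjusted threshold, exact permutation p = 0.0286, the smallest possible, 0.171 adjusted over the lists), and granulocyte-monocyte progenitor markers to 19867 to 23827 and 24591 to 26057 CPM (4 of 10 higher, unadjusted). Klf levels were not set against these lists sample by sample. Monocyte and macrophage markers summed to 664 to 897 and 806 to 971 CPM (1 of 10 higher), and B lineage markers to 44.4 to 65.8 and 59.6 to 83.6 CPM (3 of 9 higher). T and NK cell markers summed to 15.8 to 16.5 and 14.6 to 16.0 CPM (0 of 4 tested), with Cd3e at 0 to 0.347 CPM and Lck at 9.55 to 13.1 CPM. Erythroid markers summed to 269 to 439 and 360 to 413 CPM (1 of 6 higher), with all 4 listed globin genes at 0. Megakaryocyte markers were lower in sum (268 to 321 against 202 to 245 CPM), with 3 of 9 lower at an unadjusted p under 0.05 and Pf4 past the adjusted threshold (lost in 5 of 15 alternatives, under limma-voom and without Ddx41+/+ replicate 2 or 3 or Ddx41+/- replicate 6 or 8). Endothelial and stromal markers were at 29.8 to 36.2 and 29.5 to 54.9 CPM (2 of 9 lower), with Cdh5 at 0.83 CPM or less and Tek at 8.53 to 14.0 CPM. Ddx41+/- replicate 8, which held the Klf3 and Klf6 peaks, stood apart in Col1a1 (14.9 CPM, against 0.822 to 2.20 in the other samples) and Col1a2 (16.8 CPM, against 3.24 to 5.03), collagen genes chosen after their values were seen. The list's other stromal genes lay within the range of the other samples in that replicate. These were Col3a1 (1.26 CPM, against 0.145 to 2.10), Cxcl12 (5.70 CPM, against 3.44 to 6.30) and Lepr (0.496 CPM, against 0.104 to 1.04). The part of these cells in the Klf values was not tested. In bulk RNA, fewer cells of a type and less RNA per cell cannot be told apart.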

How the data were processed

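Poly(A) RNA of sorted LSK cells was sequenced from 7 mice. The authors deposited unnormalized counts of reads, 1 row per gene symbol. The submitters' processing notes name FastQC 0.11.7, HISAT2 2.0.5, featureCounts 1.5.2 and mm10, while the annotation, the strand setting and the treatment of shared reads are not given in the sources used here. The labels name a stranded library kit and the study's methods an unstranded one, so reads of overlapping genes on opposite strands may have been merged. All 7 sample columns were used and 0 were left out.

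Groups follow the genotype given in the labels. Counts were filtered with filterByExpr, scaled by TMM and tested with edgeR 4.0.16 (R 4.3.3, robust quasi-likelihood fit of genotype, no covariate), with Benjamini-Hochberg adjustment over 13340 genes and a threshold of 0.05. The Klf genes were found by symbol, and positions and lengths came from GENCODE M21 (GRCm38). Alternatives were other scalings, no filter, DESeq2 1.42.0, limma 3.58.1 (voom, with and without sample weights), a non-robust fit and omission of each sample, 15 fits in all. Log2 CPM used a prior count of 2. Exact permutation tests ran in scipy 1.17.1. Scripts were tested on simulated data with known changes.

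The members and all gene lists (other Klf family, Sp family, cofactors, upstream regulators, targets, immediate-early genes and 9 cell type marker lists) were chosen with earlier results of these data known. Genes named were the members, Ddx41, from each pathway list those with an adjusted p under 0.05 and the 2 with the smallest unadjusted p, and for Klf2, Klf4, Klf6 and Klf10 the 3 genes most alike, apart from items that are not reported here. Cyr61 and G6b were matched through older symbols, and Ly6g, Ighm, Trbc1 and Trbc2 were not found. The total of 32234499 counts or more per sample limits precision mainly for Klf12 and Klf7.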

Additional observations from a re-analysis of the deposited data

Results flagged for a closer look

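Klf10 in Ddx41+/+ replicate 3 was at 33.4 CPM, far from the other 3 control samples, the nearest of which was at 27.1 CPM. The gap was 0.853 of the range of the group, above Dixon's 95% critical value for 4 samples. Among the 11 genes checked in the controls (Ddx41 and the Klf members) chance alone would give 0.55 such cases, and the group of 3 Ddx41+/- samples was not examined this way.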

How the results depend on the processing

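Over 15 alternative fits per gene, 148 of 150 Klf fold changes kept their direction. The exceptions were Klf11 without Ddx41+/- replicate 6 (0.021) and without Ddx41+/- replicate 8 (0.10), and when each sample was left out the fold change of Klf11 ran from -0.28 to 0.10. The count of Klf members past the threshold was 0 except for 1, Klf6, under DESeq2 and without Ddx41+/- replicate 6, and 0 to 1 when each sample was left out. Klf members without overlap were 0 with library totals only and 1 to 5, higher and lower together, when each sample was left out, where 6.71% to 11.1% of all genes were higher and 6.71% to 11.9% lower without overlap. Genes called numbered 15 with library totals only, 91 without the filter, 164 under DESeq2, 10 under limma-voom and 14 with the non-robust fit, and 7 to 41 when each sample was left out. Immediate-early genes called numbered 0 with library totals only, limma-voom or the non-robust fit, 2 with sample quality weights, and 0 to 4 when each sample was left out. The cause was not tested. At an unadjusted p under 0.05, Klf6 and Klf7 were counted in 15 of 15 alternatives, Klf4 in 14 and Klf2 in 4, all higher in Ddx41+/-. Klf10 and Klf11 were each counted in 1 and were lower there. That was without Ddx41+/- replicate 7 (log2 fold change -0.31 and -0.28, edgeR unadjusted p = 0.0277 and 0.0496). The share of all genes at that cut was computed only for the main fit (5.7% higher and 4.93% lower). With the longest transcript as the length, 4 of 10 levels per kilobase moved by more than 1 SD. Depth limits Klf12, with 11 to 71 reads. No paired analysis was possible because the genotypes share no replicate numbers.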
